A study of Mus musculus with 10 samples.

Results

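This report describes genes of the protein acetylation machinery other than the class IIa histone deacetylases, in mouse Th17 cells kept with TMP269 or with DMSO. The 33 members were picked by gene symbol from a deposited RNA sequencing table of 17493 genes, and all 33 were found in it. They comprise 4 class I deacetylase genes, 3 of classes IIb and IV, 7 sirtuins, 8 corepressor subunits, 9 lysine acetyltransferases and 2 BET reader genes.

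The cells of the 2 groups came from C57BL/6 mice. Naive CD4+ T cells from spleen were stimulated with plate-bound antibodies to CD3 and CD28, with IL6 at 20 ng/mL and TGFb at 2.5 ng/mL, for 48 to 72 h. The tested cells received TMP269, an inhibitor compound selective for HDAC4, HDAC5, HDAC7 and HDAC9 (class IIa). The control cells carry the label DMSO, the usual solvent of such compounds. Each group has 2 libraries. The sources used here give neither the dose of TMP269, nor the length of exposure, nor the age of the mice. They also do not say whether replicates were separate animals or cultures, so each p-value reflects the spread of these particular libraries and that spread may be technical. The 6 chromatin immunoprecipitation and input libraries of the series were not used here.

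Lysine acetylation of histones and other proteins is set by acetyltransferases, which take the acetyl group from acetyl-CoA, and by deacetylases, which remove it. The class I enzymes use zinc and mostly act inside corepressor complexes, while the sirtuins use NAD. Class IIa deacetylases have little activity of their own on acetylated histones and bind a complex of HDAC3 with the NCoR or SMRT corepressor. In T cells these enzymes act on cytokine genes and on the factors that set helper T cell class, and BET proteins read the acetylated lysines at active genes.

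Recovered reads totalled between 20837231 and 23259102 in the TMP269 libraries and between 20007042 and 25321455 in the DMSO libraries. The ribosomal RNA gene Rn45s took 0.716% and 1.12% of reads in TMP269 replicates 1 and 2, against 0.836% and 2.20% in DMSO replicates 1 and 2, so DMSO replicate 2 stood apart. Values are given as normalised reads, the reads of a gene divided by the size factor of its library. As to the cell type label, 5 markers of CD4+ T cells summed to 38132 to 39176 normalised reads with TMP269 and 34599.8 to 37804 with DMSO. Of 6 Th17 markers, Il17a, Il17f and Ccr6 were called lower with TMP269. All 6 B cell markers were detected and lay lower in both TMP269 libraries, with sums of 2004 to 2091 against 3347 to 3489 normalised reads with DMSO, and 4 of them were called lower. The 6 myeloid markers summed to 76.5 to 80.7 with TMP269 and 57.9 to 70.2 with DMSO, and the 6 markers of CD8 T and NK cells to 387 to 629 with TMP269 and 416 to 612 with DMSO. The NK receptor genes Ncr1 and Klrb1c were near 0, each listed at 0 in at least 1 library. What part these other cells had in any result below was not tested. In a bulk sample, fewer cells of a type and less RNA per cell cannot be told apart.

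Of the 33 acetylation machinery genes, 5 were called different with TMP269. The coactivator acetyltransferase genes Crebbp and Ep300, the NAD-dependent deacetylase gene Sirt2 and the CoREST subunit gene Rcor3 rose, and the acetyltransferase gene Kat2a fell. The other 28 members were not called, which with 2 libraries a group does not show that they were unchanged. Of all 12535 genes tested with limma, 27.5% passed an adjusted p of 0.05 (Benjamini-Hochberg). Those higher with TMP269 made up 12.8% and those lower 14.7%. Of the 33 members, 15.2% were called, 12.1% higher and 3.03% lower. The TMP269 and DMSO values did not overlap for 23 members, or 69.7%, and for 66.6% of all tested genes. The median log2 fold change was 0.08 over the members and -0.00 over all tested genes, and 22 of the 33 values were positive. Among all called genes, 46.5% were higher, against 67.3% when the libraries were scaled to equal totals, which moved the median of all genes to 0.10. With equal totals 6 members were higher and 1 was lower. That was 21.2% called, against 25.4% of all tested genes, of which 2145 were higher and 1042 lower. Only 3 members were called without TMP269 replicate 1 and 3 without DMSO replicate 2, where 18.2% and 16.6% of all genes were called.

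**Figure D1:**
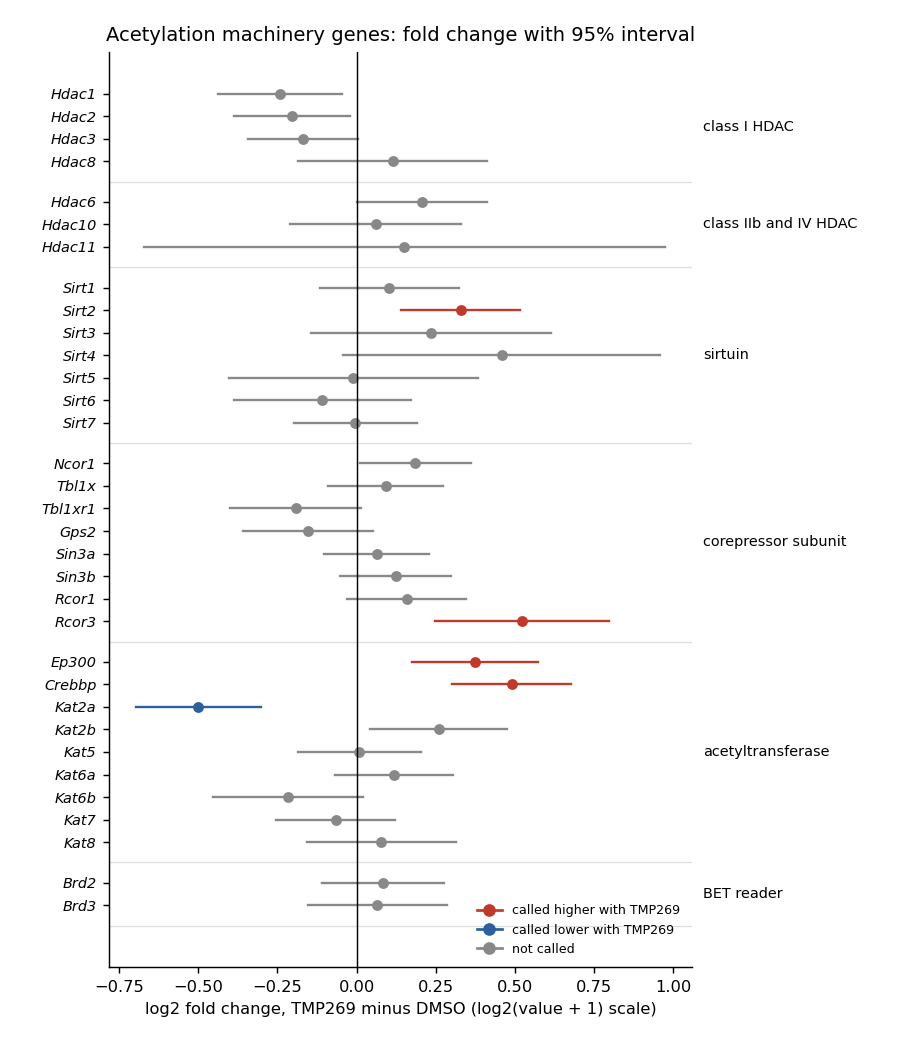
Each point is the log2 fold change of a member, TMP269 minus DMSO on the log2(value + 1) scale, and each line its 95% interval from limma (n = 2 libraries per group). Red points were called higher (Sirt2, Rcor3, Ep300, Crebbp), the blue point was called lower (Kat2a), and the 28 grey members were not called.

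Crebbp encodes CBP, and Ep300 its close relative p300, coactivators that acetylate histones at enhancers and promoters. Crebbp had 2002 and 2105 normalised reads in the TMP269 libraries, against 1405 and 1521 in the DMSO libraries. The groups did not overlap, and the gap between them was several times the spread within either. The log2 fold change was 0.49 ± 0.08 (SE), a 1.4-fold rise (limma adjusted p = 0.00394). It was called under all 14 other settings tried without a replicate block, with adjusted p between 1.54e-04 and 0.00998. Ep300 had 3872 and 3564 normalised reads with TMP269, against 3034 and 2711 with DMSO. Here too both TMP269 libraries were above both DMSO libraries, although replicate 1 was the higher of each group. Its log2 fold change was 0.37 ± 0.09 (SE), a 1.29-fold rise (limma adjusted p = 0.0148). Ep300 no longer passed without TMP269 replicate 1 (limma adjusted p = 0.0801) and without DMSO replicate 2 (limma adjusted p = 0.0719), and over the 14 settings the adjusted p ran between 0.00372 and 0.0801.

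Kat2a and Kat2b encode GCN5 and PCAF, interchangeable catalytic subunits of the SAGA and ATAC coactivator complexes. Kat2a had 1142 and 1068 normalised reads with TMP269, against 1627 and 1500.4 with DMSO. The groups lay far apart relative to their spread. Kat2a fell to 0.707-fold (log2 fold change -0.50, SE 0.09, limma adjusted p = 0.0045) and was called lower under all 14 other settings, with adjusted p between 5.90e-04 and 0.0260. Kat2b had 771 and 766 normalised reads with TMP269, against 618 and 667 with DMSO. Both TMP269 values were the higher ones, but the log2 fold change of 0.26 ± 0.10 (SE) did not pass (limma adjusted p = 0.0745). With equal library totals Kat2b was called higher (limma adjusted p = 0.0251), as it was with equal totals without Rn45s (limma adjusted p = 0.0247), and the adjusted p over the 14 settings ran between 0.0247 and 0.258.

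The other 5 acetyltransferase genes belong to the MYST family, and none was called. Kat6a and Kat6b encode MOZ and MORF, Kat7 encodes HBO1, Kat5 encodes TIP60 and Kat8 encodes MOF. Kat6a had 3588 and 3779 normalised reads with TMP269, against 3233 and 3554 with DMSO (log2 fold change 0.12, 95% interval -0.07 to 0.31, limma adjusted p = 0.308). Kat6b had 973 and 979 with TMP269, against 1245 and 1035 with DMSO, and did not pass (log2 fold change -0.22, 95% interval -0.45 to 0.02, limma adjusted p = 0.151). The Kat6b values with DMSO were far less alike than those with TMP269. Kat5, Kat7 and Kat8 had log2 fold changes of 0.01, -0.07 and 0.08, and the groups of Kat5 and Kat7 overlapped.

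**Figure D2:**
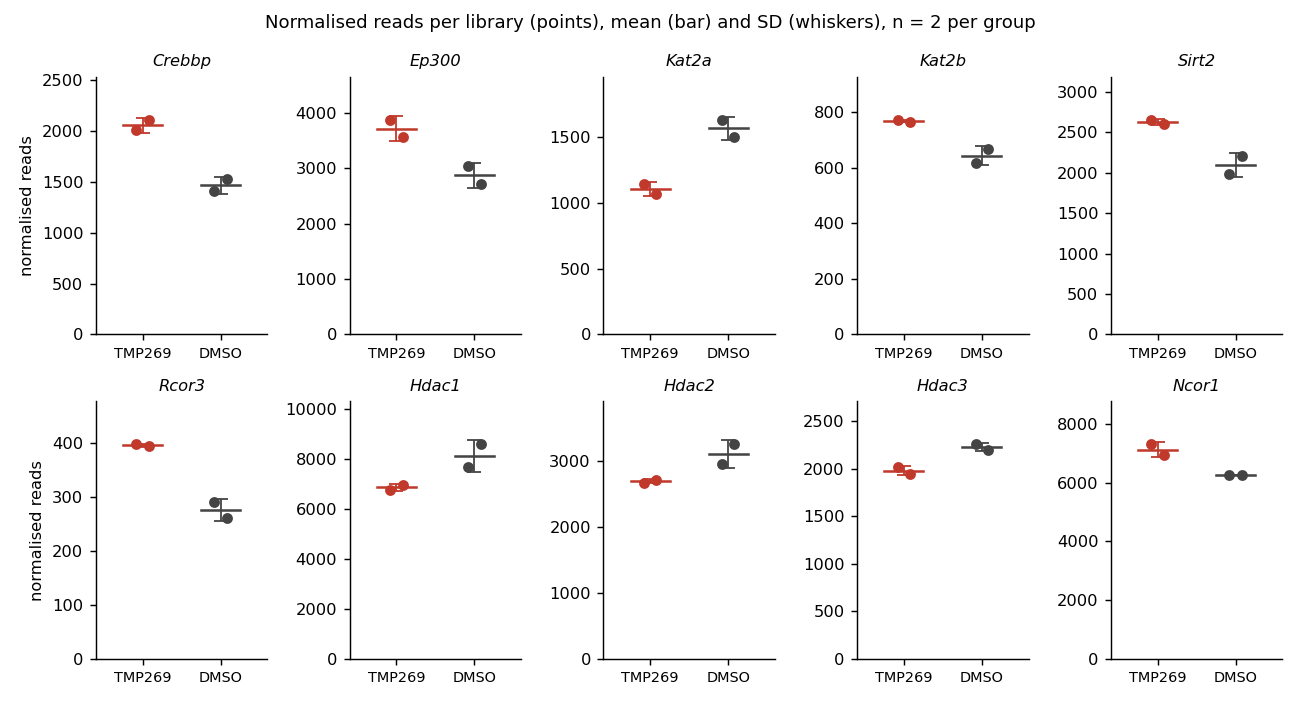
Normalised reads per library are plotted for 10 members, with TMP269 left of DMSO. Points are libraries, bars are means and whiskers the SD (n = 2). In each panel the groups do not overlap. Crebbp, Ep300, Sirt2 and Rcor3 were called higher and Kat2a lower, while Kat2b, Hdac1, Hdac2, Hdac3 and Ncor1 were not called.

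The sequences before the starts of the 5 called genes are shown because these are the members called different between the groups. They come from RefSeq (GRCm38.p6), matched by symbol, which gave promoters for 29 of the 33 members, and run 250 bases up to the base before the annotated start, 5′ to 3′ on the strand of the gene. This build differs from that of the table, so no position was carried over. Capitals mark the GGGCGG motif of SP and KLF factors, the ETS motif CCGGAAG, the CCAAT motif of NF-Y, the CACGTG E-box, the CRE motif TGACGTCA, and the longer NRF1 and MEF2 motifs, on either strand. The windows are Crebbp at chr16:4213405-4213654 (minus strand), Ep300 at chr15:81585964-81586213 (plus strand), Sirt2 at chr7:28766502-28766751 (plus strand), Rcor3 at chr1:192138041-192138290 (minus strand) and Kat2a at chr11:100712468-100712717 (minus strand).
Crebbp: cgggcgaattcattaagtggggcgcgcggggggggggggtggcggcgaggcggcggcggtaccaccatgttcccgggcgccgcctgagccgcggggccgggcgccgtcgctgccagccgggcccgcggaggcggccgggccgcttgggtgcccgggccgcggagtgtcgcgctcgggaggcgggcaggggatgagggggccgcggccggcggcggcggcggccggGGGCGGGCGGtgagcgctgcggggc
Ep300: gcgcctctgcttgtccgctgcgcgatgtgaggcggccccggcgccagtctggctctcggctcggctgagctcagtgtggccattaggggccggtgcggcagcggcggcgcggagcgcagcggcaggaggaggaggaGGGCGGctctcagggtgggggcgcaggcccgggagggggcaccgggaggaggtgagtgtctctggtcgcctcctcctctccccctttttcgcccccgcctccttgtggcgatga
Sirt2: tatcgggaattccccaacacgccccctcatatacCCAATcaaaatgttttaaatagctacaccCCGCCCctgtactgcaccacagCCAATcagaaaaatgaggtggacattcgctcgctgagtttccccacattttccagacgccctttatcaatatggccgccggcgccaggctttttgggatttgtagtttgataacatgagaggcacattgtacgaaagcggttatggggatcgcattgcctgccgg
Rcor3: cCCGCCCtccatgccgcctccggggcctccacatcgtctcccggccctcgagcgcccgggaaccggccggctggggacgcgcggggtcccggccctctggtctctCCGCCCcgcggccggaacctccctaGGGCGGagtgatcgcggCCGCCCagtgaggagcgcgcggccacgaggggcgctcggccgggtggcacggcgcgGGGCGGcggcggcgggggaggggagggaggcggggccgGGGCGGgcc
Kat2a: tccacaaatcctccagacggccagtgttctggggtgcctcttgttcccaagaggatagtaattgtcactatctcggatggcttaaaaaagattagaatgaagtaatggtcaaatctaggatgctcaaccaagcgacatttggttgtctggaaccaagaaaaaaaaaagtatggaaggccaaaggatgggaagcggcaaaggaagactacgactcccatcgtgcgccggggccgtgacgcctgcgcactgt

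The windows of the 4 genes that rose differed in G or C content. The windows of Crebbp and Rcor3 were 84% and 82.8% G or C with 44 and 39 CpG dinucleotides, and that of Ep300 was 73.2% with 25. Those of Sirt2 and Kat2a were 50% and 48.8% with 13 and 11 CpG. GGGCGG occurred 6 times before Rcor3, 2 overlapping times before Crebbp, and 1 time each before Ep300 and Sirt2, and CCAAT 2 times before Sirt2. Of all RefSeq promoter windows of this length, 32.7% held GGGCGG and 33.8% held CCAAT, and among those of tested genes the shares were 57.3% and 35.2%. None of the 7 motifs was found in the Kat2a window, and the MEF2 letters were in none of the 5. Such matches are letters only and do not show that a factor binds.

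Class I deacetylases are the catalytic core of the SIN3, NuRD, CoREST and NCoR complexes, and none of the 4 was called. Hdac1 had 6772 and 6964 normalised reads in TMP269 cells, against 7682 and 8585 in DMSO cells. Hdac2, its close paralog, had 2669.8 and 2712 with TMP269, against 2951 and 3252 with DMSO. Hdac3, the NCoR partner on which class IIa enzymes depend, had 2016 and 1947 with TMP269, against 2258 and 2200.0 with DMSO. In all 3 genes both TMP269 values were the lower ones. The log2 fold changes were -0.24 ± 0.09 for Hdac1, -0.20 ± 0.08 for Hdac2 and -0.17 ± 0.08 for Hdac3 (SE), with limma adjusted p of 0.0659, 0.0933 and 0.129. All 3 were negative under each of the 14 settings. Hdac1 was called lower without DMSO replicate 1 (limma adjusted p = 0.0314), and its adjusted p over the settings ran up to 0.297. Hdac8, a class I enzyme that works outside these complexes, was at 253 and 272 with TMP269, against 234 and 251 with DMSO (log2 fold change 0.11, 95% interval -0.18 to 0.41, limma adjusted p = 0.548).

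Hdac6, a cytoplasmic enzyme that deacetylates tubulin, had 1091 and 1068 normalised reads with TMP269, against 983 and 891 with DMSO. Its groups did not overlap, and it was not called (log2 fold change 0.21, 95% interval 0.00 to 0.41, limma adjusted p = 0.123). Hdac10, a polyamine deacetylase, overlapped between groups (436 and 399 with TMP269, against 424 and 378 with DMSO). Hdac11, the sole class IV enzyme, was barely present at 26.9 and 21.8 with TMP269, against 27.9 and 16.9 with DMSO. At that depth its 95% interval, -0.67 to 0.97 on the log2 scale, leaves a change of either sign undetected. For comparison among the class IIa genes, Hdac7 was 1.31-fold and Hdac5 1.19-fold higher with TMP269, and Hdac4 and Hdac9 were not called. Leaving out TMP269 replicate 1 (limma adjusted p = 0.211) or DMSO replicate 2 (0.115) ended the Hdac7 call, and the Hdac5 call was lost without any 1 of the 4 libraries (0.0553 to 0.214), with no filter on low values (0.0640) and with DESeq2 (adjusted p = 0.0919).

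Among the NAD-dependent deacetylases, Sirt2 alone was called. SIRT2 is mainly cytoplasmic and acts on tubulin and on histones. Sirt2 had 2649 and 2600.5 normalised reads with TMP269, against 1987 and 2200.0 with DMSO. Both TMP269 libraries were above both DMSO libraries, which themselves differed by more than the TMP269 libraries did. The log2 fold change was 0.33 ± 0.08 (SE), a 1.26-fold rise (limma adjusted p = 0.0189). Sirt2 no longer passed without TMP269 replicate 1 (limma adjusted p = 0.0776) and without DMSO replicate 1 (limma adjusted p = 0.0726), and over the 14 settings the adjusted p ran between 0.00671 and 0.0776.

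Sirt1, a nuclear sirtuin that deacetylates histones, p53 and FOXO factors, had 831 and 921 normalised reads with TMP269, against 789 and 842 with DMSO. Its groups overlapped (log2 fold change 0.10, 95% interval -0.12 to 0.32, limma adjusted p = 0.459). Sirt4, a mitochondrial sirtuin, had 308 and 217 with TMP269, against 227 and 156 with DMSO. Replicate 1 was the higher library in both groups, so that the groups overlapped (log2 fold change 0.46 ± 0.22, SE, limma adjusted p = 0.155). Sirt4 was called higher without TMP269 replicate 2 (limma adjusted p = 0.0153) and without DMSO replicate 1 (0.0304), and the adjusted p over the settings ran up to 0.604. The other mitochondrial genes Sirt3 and Sirt5 had log2 fold changes of 0.24 and -0.01, and the nuclear Sirt6 and Sirt7 -0.11 and -0.00, none of them called. The signs of Sirt5 and Sirt7 turned with TMM factors and with equal library totals, so neither has a direction here.

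Corepressor subunits hold the deacetylases together, and 1 of the 8 was called. Rcor3 encodes a CoREST scaffold that links HDAC1 or HDAC2 to the demethylase LSD1. It had 397 and 393 normalised reads in TMP269 cells, against 289.7 and 261 in DMSO cells. The TMP269 libraries were nearly equal and well above both DMSO libraries. The log2 fold change was 0.52 ± 0.12 (SE), a 1.44-fold rise (limma adjusted p = 0.0143), lost only without DMSO replicate 2 (limma adjusted p = 0.0697, the highest over the 14 settings, of which the lowest was 0.0121). Its paralog Rcor1 had 1196 and 1185 with TMP269, against 1082 and 1052 with DMSO, and did not pass (log2 fold change 0.16, 95% interval -0.03 to 0.34, limma adjusted p = 0.182).

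Of the NCoR complex, Ncor1, the scaffold that activates HDAC3, had 7301 and 6949 normalised reads with TMP269, against 6272 and 6259 with DMSO. The groups were apart, and the log2 fold change of 0.18 ± 0.08 (SE) did not pass (limma adjusted p = 0.107, between 0.0297 and 0.495 over the 14 settings). It was called higher with equal library totals (limma adjusted p = 0.0316) and with equal totals without Rn45s (0.0297). The beta-propeller subunit gene Tbl1xr1 had 1839 and 1888 with TMP269, against 1979.5 and 2290.4 with DMSO (log2 fold change -0.19, limma adjusted p = 0.146). It was called lower without DMSO replicate 1 (limma adjusted p = 0.0448), and its adjusted p over the settings ran up to 0.604. Its paralog Tbl1x had 1534 and 1527 with TMP269, against 1398 and 1475 with DMSO (log2 fold change 0.09, limma adjusted p = 0.422). Gps2, a small subunit, was at 793 and 786 with TMP269, against 908 and 849 with DMSO (log2 fold change -0.15, limma adjusted p = 0.237). The Gps2 locus overlaps Eif5a in the RefSeq table. Eif5a was at 31336 and 32958 with TMP269 and 41922 and 48332 with DMSO, and without the strand setting of the counting the Gps2 value is uncertain. The SIN3 scaffold genes Sin3a and Sin3b had log2 fold changes of 0.06 and 0.12, with groups that did not overlap and limma adjusted p of 0.553 and 0.261.

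Neither BET gene was called. BRD2 and BRD3 bind acetylated histone tails through paired bromodomains. Brd2 had 9923 and 9922 normalised reads with TMP269, against 8934 and 9808 with DMSO (log2 fold change 0.08, 95% interval -0.11 to 0.28, limma adjusted p = 0.489). The difference was smaller than the spread of the DMSO libraries. Brd3 had 2083 and 1746 with TMP269, against 1841 and 1803 with DMSO, and its groups overlapped (limma adjusted p = 0.646). Brd2 overlaps H2-DMa in the RefSeq table, and Sirt2, Ncor1 and Rcor3 overlap the tested genes Gm19897, Ttc19 and Gm10516, so 5 members share their locus with a tested gene.

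Related members were also compared within each library, where scaling cancels. With 2 libraries a group 0.333 is the smallest two-sided p of the exact permutation test, so the ratios are descriptive, and all 10 adjusted p were 0.476 or more. The log2 ratio of Kat2a to Kat2b was 0.57 and 0.48 in TMP269 libraries, against 1.39 and 1.17 in DMSO libraries, a difference of -0.76. It lay between -0.65 and -0.87 with any 1 library left out. The Rcor1 to Rcor3 ratio was 1.59 in both TMP269 libraries, against 1.90 and 2.01 in DMSO libraries, a difference of -0.36. For Hdac3 to Hdac8 the difference was -0.28, for Tbl1x to Tbl1xr1 0.28 and for Kat6a to Kat6b 0.34, with groups apart in each. Leaving out DMSO replicate 1 made the Kat6 difference 0.14, and leaving out DMSO replicate 2 made it 0.54. The differences were smaller for Hdac1 to Hdac2 (-0.04) and Sin3a to Sin3b (-0.06), also with groups apart. For Ep300 to Crebbp the difference was -0.12, for Sirt6 to Sirt7 -0.10 and for Brd2 to Brd3 0.02, with overlapping groups in each.

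**Figure D3:**
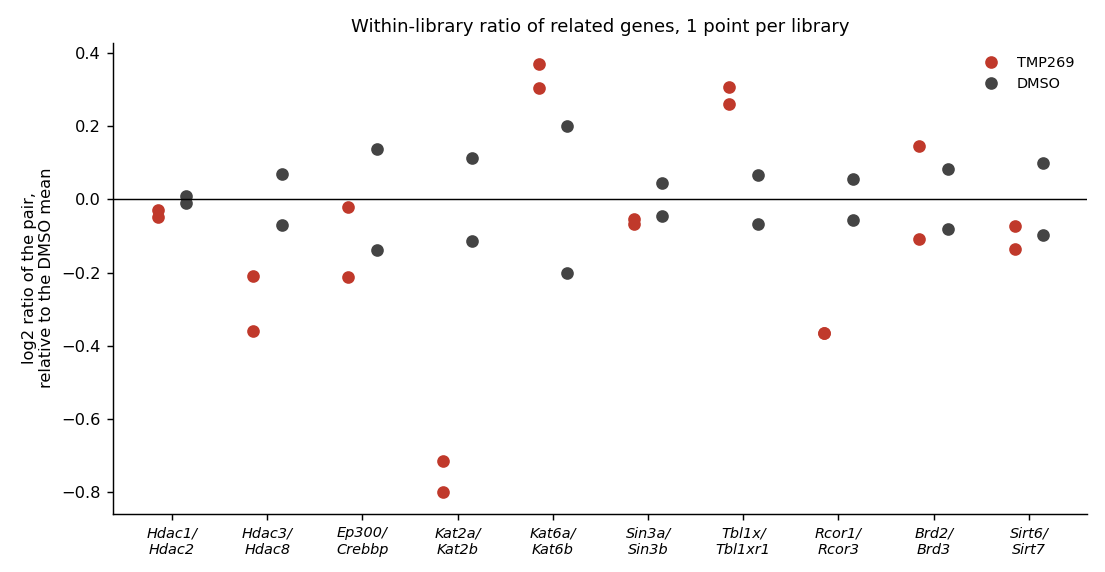
The log2 ratio of the first to the second gene of 10 pairs is plotted for each library, relative to the mean of the DMSO libraries, with TMP269 (red) left of DMSO (grey). Kat2a/Kat2b is farthest from the DMSO libraries, with a difference of -0.76, and the TMP269 points of Rcor1/Rcor3 coincide.

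Beyond the members, 122 further genes of the same complexes and of acetyl-CoA and NAD supply were taken as partner lists, of which 121 were tested. In total 17 were called higher and 23 lower, 14.0% and 19.0% against 12.8% and 14.7% of all tested genes, with a median log2 fold change of -0.04. With equal library totals the split was 25 higher and 14 lower, where 2145 of all 12535 tested genes were higher and 1042 lower. Fewer partner genes were called without TMP269 replicate 1 or DMSO replicate 2, and in both fits fewer of all tested genes were called as well.

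Subunits of the deacetylase complexes moved in both directions. The shares below stand beside 12.8% higher and 14.7% lower among all tested genes. Of 12 NuRD genes, 1 rose (8.33%) and 3 fell (25%). The helicase gene Chd3 was 1.29-fold higher, while Mbd3, a methyl-CpG-binding domain subunit, fell to 0.741-fold and the histone chaperone gene Rbbp7 to 0.782-fold. Of 12 SIN3 genes, 1 rose (8.33%) and 4 fell (33.3%). Sap30, which tethers SIN3 to HDAC1, had 493 and 541 normalised reads with TMP269, against 879 and 965 with DMSO, and fell to 0.561-fold. Fam60a fell to 0.633-fold, and Arid4a, a chromodomain subunit, rose 1.31-fold. Of 11 NCoR, CoREST and MiDAC genes, 4 rose (36.4%) and 1 fell (9.09%). Rcor2, the remaining CoREST paralog, had 130.2 and 128 with TMP269, against 323 and 281 with DMSO. It fell to 0.431-fold (limma adjusted p = 0.00104), the opposite sign to Rcor3. The MiDAC scaffold gene Elmsan1 was 1.36-fold higher and Phf21a, a CoREST subunit that reads unmethylated histone H3, 1.31-fold higher. Chd3 no longer passed without TMP269 replicate 1 (limma adjusted p = 0.0615), Rbbp7 without TMP269 replicate 1, TMP269 replicate 2 or DMSO replicate 2 (0.0594, 0.0848 and 0.0513) and Arid4a without TMP269 replicate 2 (0.0535). Fewer NuRD genes were called when TMP269 replicate 1, TMP269 replicate 2 or DMSO replicate 2 was left out. Fewer SIN3 genes were called without TMP269 replicate 1, and fewer NCoR, CoREST and MiDAC genes without TMP269 replicate 1 or DMSO replicate 2. In each of these fits fewer of all tested genes were called as well. With equal library totals the higher and lower SIN3 counts became 1 and 2, where 2145 of all 12535 tested genes were higher and 1042 lower.

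Partners of the acetyltransferases were likewise split. Among all tested genes, 12.8% were called higher and 14.7% lower. Of 17 SAGA and ATAC genes, 3 rose (17.6%) and 1 fell (5.88%). The deubiquitinase module gene Atxn7 was 1.37-fold higher, Trrap, the scaffold shared with TIP60, was 1.32-fold higher, and Taf5l fell to 0.791-fold. Of 14 TIP60 genes, 1 rose (7.14%) and 5 fell (35.7%). Ruvbl2 had 2695 and 2508 normalised reads with TMP269, against 4709 and 4624 with DMSO, and fell to 0.557-fold (limma adjusted p = 3.27e-04). Its partner ATPase gene Ruvbl1 fell to 0.666-fold, and both proteins also serve other complexes. Epc1, a scaffold of the TIP60 catalytic module, rose 1.35-fold. Of 9 genes of the MOZ, MORF and HBO1 complexes, 2 rose (22.2%) and none fell. The scaffold gene Brpf3 was at 1227 and 1125 with TMP269, against 734 and 683 with DMSO, a 1.66-fold rise. Ing4, a plant homeodomain subunit, was 1.52-fold higher. Of 10 MSL and NSL genes, Kansl1, the NSL scaffold, rose 1.31-fold and the WD-repeat gene Wdr5 fell to 0.788-fold. That was 10% in each direction. Of 11 other acetyltransferases and coactivators, the nuclear receptor coactivator gene Ncoa2 rose 1.41-fold and the Elongator subunit gene Elp3 fell to 0.738-fold. That was 9.09% in each direction. Calls were lost without TMP269 replicate 1 for Trrap (limma adjusted p = 0.0709), without TMP269 replicate 2 for Taf5l and Wdr5 (0.0870 and 0.0846) and without DMSO replicate 2 for Trrap, Taf5l and Ing4 (0.136, 0.0969 and 0.0504). Those of Taf5l and Wdr5 were also lost with equal library totals (0.0615 and 0.0619). Fewer SAGA and ATAC genes were called when TMP269 replicate 1, TMP269 replicate 2 or DMSO replicate 2 was left out. The same held for MOZ, MORF and HBO1 genes without DMSO replicate 2 and for MSL and NSL genes without TMP269 replicate 2. In each of these fits fewer of all tested genes were called as well. Equal totals gave 1 called MSL and NSL gene, and 3 higher and 1 lower of the other acetyltransferases and coactivators. There 2145 of all 12535 tested genes were higher and 1042 lower.

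Of 13 tested genes of other acetyl-lysine readers, 2 rose and 1 fell, 23.1% called against 27.5% of all tested genes. The bromodomain genes Baz2b and Brwd1 were 1.42-fold and 1.33-fold higher, and Dpf1, a BAF complex subunit known from neurons, was at 95.1 and 86.4 normalised reads with TMP269, against 278 and 175 with DMSO. Baz2b did not pass without TMP269 replicate 1 (limma adjusted p = 0.0827) and without DMSO replicate 2 (0.116). With equal library totals 5 readers were higher and 1 was lower, and with TMM factors or voom 4 were higher and 1 was lower. Of all tested genes, 25.4% were called with equal totals, 26.9% with TMM factors and 27.2% with voom.

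Of 12 genes that supply acetyl-CoA and NAD, 1 rose and 6 fell, 50% called lower against 14.7% of all tested genes, with a median log2 fold change of -0.29. Nampt, the rate-limiting enzyme of NAD salvage on which sirtuins depend, had 3914 and 3854 normalised reads with TMP269, against 5331 and 5566 with DMSO, and fell to 0.713-fold (limma adjusted p = 0.00271). Dlat, a pyruvate dehydrogenase subunit gene, was at 1318 and 1393 with TMP269, against 1738 and 2023 with DMSO, and fell to 0.723-fold. Nmnat1, which encodes a nuclear enzyme that makes NAD, was 1.36-fold higher (limma adjusted p = 0.0489), a call lost without any 1 of the 4 libraries. It was also lost with a pseudocount of 5 (limma adjusted p = 0.0502), with no filter on low values (limma adjusted p = 0.0684) and with DESeq2 (adjusted p = 0.143), so that 7 of the 14 settings ended it. The other 4 that fell, between 0.711-fold and 0.833-fold, were Acly, Acss2, Slc25a1 and Pdha1. Acly and Acss2 encode enzymes that make cytosolic acetyl-CoA, Slc25a1 the exporter of its precursor citrate, and Pdha1 a further pyruvate dehydrogenase subunit. With equal library totals 1 was higher and 3 were lower, where 2145 of all 12535 tested genes were higher and 1042 lower. Fewer were called lower when TMP269 replicate 1, TMP269 replicate 2 or DMSO replicate 2 was left out. In each of these fits fewer of all tested genes were called lower too.

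**Figure D4:**
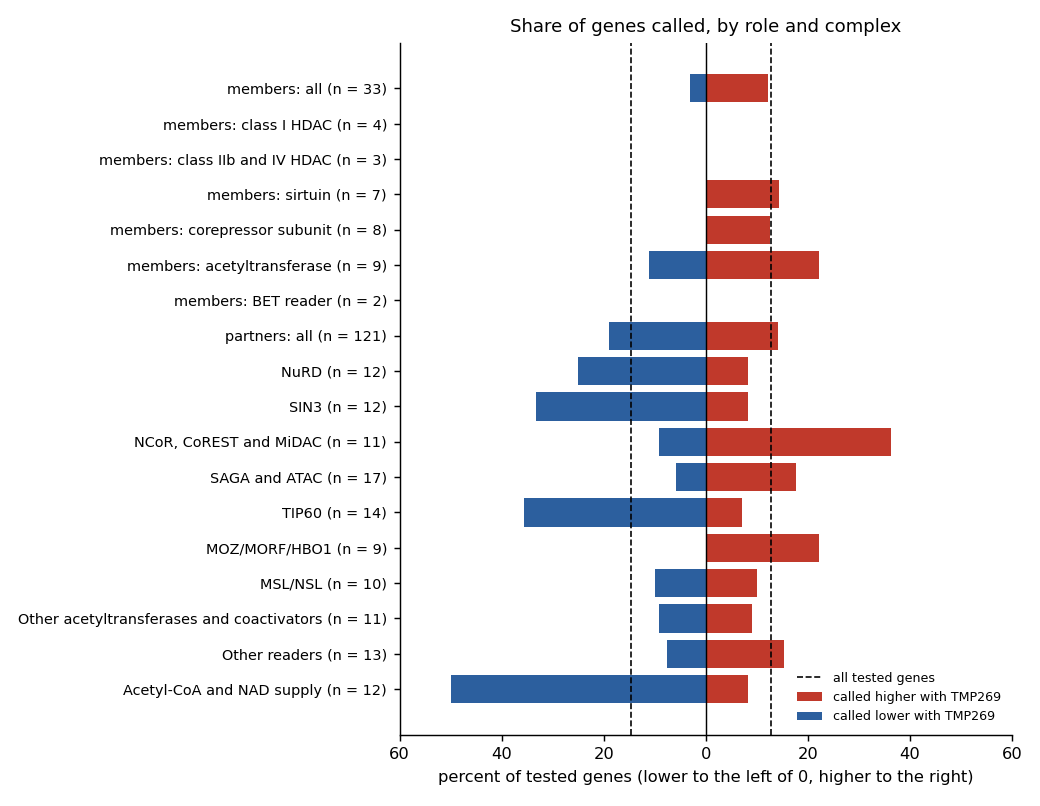
Bars give the percent of tested genes of each role or complex called higher (red, right of 0) or lower (blue, left of 0) with TMP269. Dashed lines mark the 12.8% higher and 14.7% lower of all 12535 tested genes. Acetyl-CoA and NAD supply reaches 50% lower, and the class I deacetylases, class IIb and IV deacetylases and BET readers have no bar.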

How the data were processed

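RNA was sequenced from 2 TMP269 and 2 DMSO libraries after selection of polyadenylated RNA, per the labels' protocols. The authors deposited a signal per gene and library, in which read counts were divided by 1 size factor per library, as the deposited values themselves show. Dividing by the smallest step of each column gave whole reads for 100% of the values (tolerance 1e-06). The submitters' processing notes name mm9 as build and list DESeq2, HTSeq, TopHat2 2.1.0, Bowtie2 and CASAVA 1.4, without their roles. For the annotation, the strand setting and multiply matching reads, nothing was given in the sources used here. Size factors were 0.967 and 1.05 for TMP269 and 1.11 and 0.829 for DMSO replicates 1 and 2.

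The test was limma 3.58.1 (R 4.3.3) with its trended prior, two-sided, on log2(value + 1) over the 12535 genes that reached 10 in 2 or more libraries, with Benjamini-Hochberg adjustment over all of them. Fold changes on this scale understate changes of low genes. All 33 members passed the filter. Alternatives were TMM factors, equal library totals with or without Rn45s, edgeR 4.0.16, DESeq2 1.42.0 and voom on recovered reads (edgeR called 3406 genes), pseudocounts 0.5 and 5, no filter or a filter at 50, thresholds of 0.01 and 0.1, a replicate block and each library left out, where a lone library is assumed to share the spread of the other group. Simulated data with known changes served to check the fit. Named were all members, called or not, and in each partner list up to 2 genes called higher and 2 called lower by the smallest p. Members and lists were chosen with earlier results of these data known. The other genes named were chosen after their values were seen. An older symbol was matched to the RefSeq table for 3 partner genes.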

Additional observations from a re-analysis of the deposited data

How the results depend on the processing

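The 5 called members kept their direction under all settings. Calls of members numbered 5 with TMM factors, edgeR, DESeq2, voom, both other pseudocounts and both other filters, and 7 with equal totals with or without Rn45s. They numbered 2 at an adjusted p under 0.01 and 8 under 0.1, and between 3 and 7 with each library left out in turn. Calls over all genes were 1487 at an adjusted p under 0.01 and between 2078 and 3675 with each library left out, and those of partner genes between 24 and 43. Replicate numbers 1 and 2 are shared by the groups, but no label ties same-numbered libraries to one animal or day. Within-group deviations of same-numbered libraries correlated at 0.371 across genes, and 2 pairs cannot settle a pairing. With the replicate number as a block, 15 members (9 higher and 6 lower), 75 partner genes and 6360 of all genes were called. The 10 members gained were Hdac1, Hdac2 and Hdac3 (lower, limma adjusted p = 0.00122, 0.00479 and 0.0165), Tbl1xr1 and Kat6b (lower), and Hdac6, Sirt4, Ncor1, Rcor1 and Kat2b (higher).

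Signs that turned belonged to members or class IIa genes that were not called. With TMM factors the log2 fold change was 0.0038 for Sirt5 and 0.010 for Sirt7. With equal totals it was 0.093 for Sirt5, 0.10 for Sirt7, 0.038 for Kat7 and 0.054 for Hdac9, and without Rn45s 0.085 for Sirt5, 0.091 for Sirt7, 0.029 for Kat7 and 0.046 for Hdac9. Sirt7 was at 0.0067 with edgeR, 0.0020 with DESeq2 and 0.0071 with voom. With libraries left out, the lowest and highest values were -0.023 and 0.14 for Hdac10, -0.20 and 0.50 for Hdac11, -0.060 and 0.040 for Sirt5, -0.28 and 0.063 for Sirt6, -0.077 and 0.069 for Sirt7, -0.040 and 0.057 for Kat5, -0.062 and 0.19 for Brd3, -0.014 and 0.098 for Hdac4 and -0.22 and 0.13 for Hdac9. The log2 ratio difference ran between -0.26 and 0.022 for Ep300 to Crebbp and between -0.11 and 0.15 for Brd2 to Brd3. The cause was not tested. Hdac11 was not tested at the filter of 50. With 2 libraries a group, all p-values rest on the spread limma shares across genes.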

Other observations

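Promoter windows of all members with a RefSeq entry were described as a set. The 39 windows of 29 members had a median of 61.6% G or C and 17 CpG dinucleotides, against 59.6% and 15 for the 11995 windows of tested genes. GGGCGG was in 26 of the 39, or 66.7%, against 57.3% of tested genes, and CCGGAAG in 6, or 15.4%, against 13.5%. The E-box CACGTG was in 2 (5.13% against 8.28%) and the NRF1 letters in 2 (5.13% against 1.67%). The MEF2 letters were in 1 (2.56% against 2.68%) and the CRE letters in none, against 2.63% of tested genes. These shares are descriptions of letters and were not tested.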
